A study of Homo sapiens with 11 samples.

Results

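The 40 genes described here encode enzymes and membrane proteins of the lysosome. They were chosen by name, from what their products are known to do, at a time when earlier results of these data were known. They comprise 7 membrane proteins, 10 cysteine peptidases, 3 aspartic and serine peptidases, 10 glycosidases, 5 sulfatases and 5 lipid hydrolases, activators and carriers. Each was found by its Ensembl identifier among the 58721 genes of the count table, and all 40 were among the 23693 genes with enough counts to test. The study profiled poly(A) RNA of A375 cells, an established human melanoma line with an activating BRAF mutation, to ask how melanoma cells change under a MEK inhibitor and after its removal. Withdrawn cells (5 libraries) had been kept without the drug for 4 weeks, and each carries the name and number of the persister culture it is titled after. Persister cells (5 libraries) had been kept in 2 nM trametinib, an inhibitor of the kinases MEK1 and MEK2, for 8 weeks. Parental cells (1 library) received no treatment. All 3 groups share the cell line, the genotype label WT and a serum-containing medium, so the comparisons concern 1 cell line, and the parental level rests on 1 library with no spread of its own. The labels leave unsaid how the persister cultures relate to one another, so a p-value here reflects the spread among these libraries alone, and that spread may be technical.

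Lysosomes are acidic compartments in which proteins, glycans and lipids delivered by endocytosis and autophagy are broken down. Soluble hydrolases are tagged with mannose phosphate in the Golgi, carried to endosomes by receptors and often activated there by proteolysis, while heavily glycosylated membrane proteins line the compartment and transporters export the products. Many of the genes share an E-box-containing promoter element, named CLEAR, that is bound by the transcription factors TFEB, TFE3 and MITF, of which MITF is also the lineage factor of melanocytes.

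Because 30 of the 40 genes were called higher in persister than in parental cells, the promoters of those with an extended E-box are shown. RefSeq promoter windows, covering 250 bases before and 50 bases after the start of each gene on GRCh38.p14, were at hand for 28 of the 40 genes. The E-box CACGTG was present in 11 of these 28 windows and in 8.77% of the windows of all 27305 genes. The longer TCACGTGA, which contains it, was present in 6 of 28 (LAMP1, MCOLN1, CLN3, CTSA, GAA and GALNS) and in 1.18% of all genes. GTCACGTGAC, which contains both, was present in 3 of 28 (MCOLN1, GAA and GALNS) and in 0.421% of all genes. All 3 motifs are their own reverse complement, so a match on either strand is the same match. A match is a description of letters and not a measured binding site. Many of these genes were already known to share the CLEAR element, so the share with a match is not a result about persister cells. The sequences upstream of the start are printed 5′ to 3′ on the strand of the gene, with the longest of the 3 motifs in capitals. A second TCACGTGA match in LAMP1 and both matches in CLN3 reach or lie past the start and are not printed. The start is that of RefSeq. In GENCODE 29, CTSA begins at chr20:45890144 and GAA at chr17:80101556. By those coordinates the CTSA stretch and part of GAA match 2 lie inside the gene. A CACGTG within a flank, as in CTSA, is left in lower case.
LAMP1 promoter, chr13:113297186-113297238, plus strand: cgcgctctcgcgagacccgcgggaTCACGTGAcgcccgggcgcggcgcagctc
MCOLN1 promoter, match 1, chr19:7522558-7522613, plus strand: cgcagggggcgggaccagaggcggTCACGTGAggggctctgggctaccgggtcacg
MCOLN1 promoter, match 2, chr19:7522584-7522623, plus strand: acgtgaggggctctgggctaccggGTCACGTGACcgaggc
CTSA promoter, chr20:45891285-45891334, plus strand: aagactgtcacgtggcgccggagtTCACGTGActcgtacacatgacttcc
GAA promoter, match 1, chr17:80101479-80101536, plus strand: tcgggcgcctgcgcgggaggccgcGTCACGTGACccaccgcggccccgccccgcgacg
GAA promoter, match 2, chr17:80101524-80101580, plus strand: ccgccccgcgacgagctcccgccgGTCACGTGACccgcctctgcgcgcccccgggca
GALNS promoter, chr16:88857090-88857147, minus strand: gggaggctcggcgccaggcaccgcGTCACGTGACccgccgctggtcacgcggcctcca
Both GAA matches and the second MCOLN1 match carry the full GTCACGTGAC, as does the GALNS match. Of the 6 genes with TCACGTGA, LAMP1, MCOLN1, CTSA, GAA and GALNS were called higher in persister than in parental cells, and CLN3 was not. CLN3 had only 10 to 38 counts per library and shares 25.2% of its exon bases with another gene on the same strand, so its count is uncertain. Among all 40 genes, with or without the motif, 30 were called higher, beside 16.1% of all tested genes. Whether genes with the motif rose more often than genes without it was not tested.

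Libraries held 56513920 to 82984566 counts in total, and levels are given as CPM, counts relative to a library size scaled by TMM, a trimmed mean of gene ratios. The persister libraries differed among themselves. The summed level of 10 proliferation genes was 2448 to 2654 CPM in withdrawn libraries, 800.4, 3189, 2349, 2277 and 327 CPM in persister libraries 1 to 5 and 2926 CPM in the parental library. Mitochondrially encoded genes took 3.15 to 3.70% of the counts in withdrawn libraries, 8.88, 4.51, 6.72, 4.64 and 9.28% in persister libraries 1 to 5 and 2.96% in the parental library. Of 10 melanoma markers, 8 exceeded 1 CPM in each group, with a summed level of 1664 to 1729 CPM in withdrawn, 542 to 1094 CPM in persister and 1347 CPM in parental cells. These markers went both ways. Of the 9 tested, 5 fell in persister relative to parental cells (SOX10, CSPG4, S100B, S100A1 and MIA) and 3 rose (DCT, MLANA and PMEL), where 15.1% of all tested genes were called lower and 16.1% higher. The lineage factor SOX10 averaged 814 ± 20.022 CPM in withdrawn cells, 51.9 ± 23.9 CPM in persister cells (SD, n = 5 each) and 635 CPM in the parental library. The pigment enzyme DCT averaged 34.3 ± 20.8 CPM in withdrawn cells, 424 ± 216 CPM in persister cells (SD, n = 5 each) and 2.94 CPM in the parental library. Of 10 macrophage and leukocyte markers, a cell type rich in cathepsins, 1 exceeded 1 CPM in withdrawn, 0 in persister and 1 in parental cells. Their summed level was 5.13 to 5.90 CPM in withdrawn, 1.49 to 2.01 CPM in persister and 7.76 CPM in parental cells, and the microglial and leukocyte adaptor TYROBP was at 0 in all 11 libraries. The lower persister sum came from LYZ, the secreted lysozyme, and without it the sum was 0.876 to 1.95 CPM in withdrawn, 1.35 to 1.85 CPM in persister and 0.964 CPM in parental cells. Of the 6 markers tested, PTPRC rose in persister over parental cells, to a mean of 0.296 ± 0.147 CPM in persister cells (SD, n = 5) against 0.0153 CPM in the parental library, and LYZ fell. Of 10 fibroblast markers, 6 rose and 1 fell in persister relative to parental cells, and their summed level was 42.4 to 54.9 CPM in withdrawn, 86.7 to 389 CPM in persister and 22.9 CPM in parental cells. Of 6 keratinocyte markers, the summed level was 35.1 to 39.2 CPM in withdrawn, 47.8 to 59.7 CPM in persister and 40.3 CPM in parental cells. Most of that sum was KRT10, at 47.4 to 59.0 CPM in persister and 34.9 CPM in parental cells. Of the 4 keratinocyte markers tested, 2 rose and 1 fell in persister relative to parental cells. The part of proliferation, mitochondrial share and fibroblast-type transcripts in the lysosomal results was not tested, and in bulk RNA a change in the number of cells of a type and a change of RNA per cell cannot be told apart.

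Lysosomal genes as a group stood higher in persister cells than in parental cells. Of the 40 genes, 30 were called higher and 1 lower (CTSC) at an adjusted p under 0.05, against 16.1% of all tested genes called higher and 15.1% called lower. The remaining 9, at adjusted p of 0.05 or more, were SCARB2, NPC1, CLN3, CTSZ, GUSB, ARSB, IDS, SGSH and LIPA. The median log2 fold change of the 40 genes was 1.34, beside 0.0944 over all genes tested. In 32 of 40 genes every persister library lay above the parental library, a pattern seen in 32.7% of all genes, and in CTSC every persister library lay below it, as in 30.9% of all genes. The summed level of the 40 genes was 5115, 5003, 4921, 5321 and 4813 CPM in withdrawn libraries 1 to 5, 8777, 7804, 7193, 6376 and 11799 CPM in persister libraries 1 to 5 and 3637 CPM in the parental library. The lowest persister sum, in culture 4, lay above the highest withdrawn sum and above the parental sum, and culture 5 stood highest. The tests came from edgeR's quasi-likelihood fit of all 11 libraries with Benjamini-Hochberg adjustment, so the withdrawn libraries also set their spread. The calls of CD63, MCOLN1, CTSF, CTSH, CTSL, LGMN, GLA, GLB1, GAA, NAGLU, NEU1, FUCA1, IDUA, GALNS and GM2A were lost without the withdrawn libraries. A fit of the persister and parental libraries alone called 15 of 40 higher, against 5.94% of all genes in that fit, and 1 lower, against 5.33%.

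**Figure D1:**
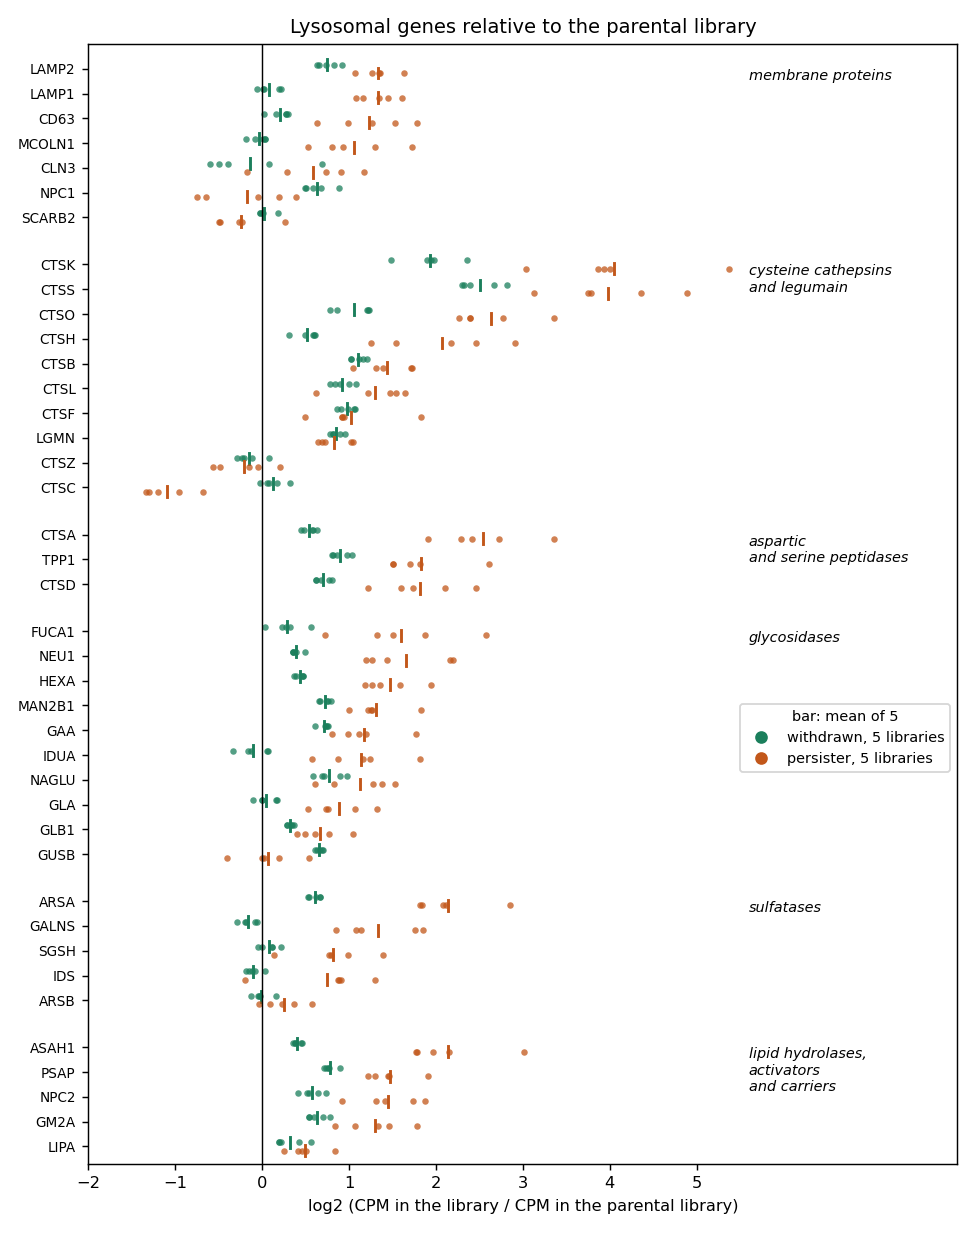
Level of each of the 40 genes in withdrawn and persister libraries relative to the parental library (log2 ratio of CPM, x axis), with 1 row per gene grouped by role, 1 point per library and a bar at the mean of 5. Most persister points lie to the right of 0, with CTSK and CTSS farthest, while the withdrawn points of most genes lie nearer 0.

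Among the 7 membrane proteins, 4 rose in persister cells and 4 fell after withdrawal, the same LAMP1, LAMP2, CD63 and MCOLN1 in both comparisons. LAMP1 (ENSG00000185896, chr13:113297241-113323672, plus strand, GRCh38), a major glycoprotein of the lysosomal membrane, had 309, 259, 273, 314 and 271 CPM in withdrawn cells, 738, 685, 602, 571 and 822 CPM in persister cells and 269.7 CPM in parental cells. Every persister library exceeded all the others, and the withdrawn libraries lay within a narrow band around the parental level. LAMP1 was 2.53-fold higher in persister than in parental cells (log2 fold change 1.34 ± 0.21 (SE), adjusted p = 0.000888) and 2.40-fold lower in withdrawn than in persister cells (log2 fold change -1.26 ± 0.11 (SE), adjusted p = 3.98e-06). LAMP2 (ENSG00000005893, chrX:120427827-120469365, minus strand), whose A isoform is the receptor of chaperone-mediated autophagy, had 249, 222, 234, 266 and 219 CPM in withdrawn cells, 360.4, 296, 338, 357 and 437 CPM in persister cells and 141 CPM in parental cells. The persister libraries of LAMP2 again lay above all withdrawn libraries, but here every withdrawn library stayed above the parental one. LAMP2 was 2.53-fold higher in persister than in parental cells (log2 fold change 1.34 ± 0.20 (SE), adjusted p = 0.000697) and 1.5-fold lower in withdrawn than in persister cells (log2 fold change -0.59 ± 0.11 (SE), adjusted p = 0.000710). CD63, a tetraspanin of late endosomes, lysosomes and melanosomes, had 508, 506, 468, 514 and 425 CPM in withdrawn cells, 1209, 1006, 829, 648 and 1438 CPM in persister cells and 419.7 CPM in parental cells. Its groups of 5 did not overlap, with a 2.44-fold rise in persister over parental cells (adjusted p = 0.0160) and a 2.12-fold fall in withdrawn against persister cells (adjusted p = 0.000441). MCOLN1, the calcium-permeable channel of the lysosomal membrane, had 15.5, 13.5, 15.7, 15.7 and 14.5 CPM in withdrawn cells, 37.8, 29.3, 26.9, 22.2 and 50.8 CPM in persister cells and 15.4 CPM in parental cells. It was 2.17-fold higher in persister than in parental cells (adjusted p = 0.0337) and 2.23-fold lower in withdrawn than in persister cells (adjusted p = 0.000372).

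NPC1 rose after withdrawal, against the direction of those 4. This transporter, which moves cholesterol out of the lysosome after receiving it from the soluble carrier NPC2, had 111, 110.5, 125, 145 and 118 CPM in withdrawn cells, 89.2, 75.8, 50.2, 46.8 and 103 CPM in persister cells and 78.3 CPM in parental cells. Every withdrawn library exceeded every persister library, while the persister libraries lay on both sides of the parental value. NPC1 was 1.67-fold higher in withdrawn than in persister cells (log2 fold change 0.74 ± 0.20 (SE), adjusted p = 0.00978), with no call in persister against parental cells (log2 fold change -0.10 ± 0.35 (SE), adjusted p = 0.843). SCARB2, a membrane receptor that carries an enzyme to the lysosome, had 208, 240.2, 207, 214 and 211 CPM in withdrawn cells, 150.3, 175, 152, 181 and 254 CPM in persister cells and 212 CPM in parental cells, and it passed in neither comparison (adjusted p = 0.499 for persister minus parental, adjusted p = 0.149 for withdrawn minus persister). CLN3, a membrane protein mutated in juvenile Batten disease, was counted at only 0.371, 0.175, 0.163, 0.242 and 0.151 CPM in withdrawn cells, 0.430, 0.203, 0.38, 0.280 and 0.519 CPM in persister cells and 0.229 CPM in parental cells. It passed in neither comparison (adjusted p = 0.455 for persister minus parental, adjusted p = 0.110 for withdrawn minus persister), and 25.2% of its annotated exon bases are shared with another gene on the same strand, so its count is uncertain.

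Cysteine cathepsins and legumain showed the widest range of the role groups, with 8 of 10 higher and 1 lower in persister cells relative to parental cells by the calls, and 6 lower and 1 higher in withdrawn than in persister cells. CTSK (ENSG00000143387, chr1:150796208-150808323, minus strand), the collagen-degrading cathepsin best known from osteoclasts, had 105, 75.6, 107, 139 and 101 CPM in withdrawn cells, 395, 435, 415, 223 and 1127 CPM in persister cells and 27.1 CPM in parental cells. Persister culture 5 held more CTSK than any other library, and even the lowest persister library, culture 4, lay above every withdrawn library. CTSK was 19.1-fold higher in persister than in parental cells (log2 fold change 4.26 ± 0.86 (SE), adjusted p = 0.00423) and 4.92-fold lower in withdrawn than in persister cells (log2 fold change -2.30 ± 0.38 (SE), adjusted p = 0.000464). CTSS (ENSG00000163131, chr1:150730196-150765957, minus strand), which trims the invariant chain of MHC class II in antigen-presenting cells, had 5.65, 5.59, 5.96, 8.01 and 7.21 CPM in withdrawn cells, 15.2, 23.3, 15.6, 9.86 and 33.5 CPM in persister cells and 1.13 CPM in parental cells. Its level was low in every library, yet the 3 groups did not overlap. CTSS was 17.2-fold higher in persister than in parental cells (log2 fold change 4.10 ± 0.66 (SE), adjusted p = 0.00106) and 3.01-fold lower in withdrawn than in persister cells (log2 fold change -1.59 ± 0.28 (SE), adjusted p = 0.000694). CTSO, a little-studied cysteine cathepsin, had 2.37, 2.5, 3.23, 3.21 and 3.18 CPM in withdrawn cells, 7.25, 14.1, 7.23, 6.60 and 9.41 CPM in persister cells and 1.38 CPM in parental cells. It was 6.46-fold higher in persister than in parental cells (adjusted p = 0.00133) and 3.07-fold lower in withdrawn than in persister cells (adjusted p = 8.49e-05), with no overlap between groups. CTSH, which acts mainly as an aminopeptidase, had 19.9, 18.5, 20.005, 16.3 and 19.7 CPM in withdrawn cells, 72.6, 38.3, 59.1, 31.3 and 98.9 CPM in persister cells and 13.1 CPM in parental cells. It was 4.57-fold higher in persister than in parental cells (adjusted p = 0.0114) and 3.18-fold lower in withdrawn than in persister cells (adjusted p = 0.000395).

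CTSC, the dipeptidyl peptidase that activates granule proteases in immune cells, was the 1 gene of the 40 to fall in persister cells. CTSC (ENSG00000109861, chr11:88293592-88337787, minus strand) had 267, 319, 271, 251 and 288 CPM in withdrawn cells, 132, 159.9, 101, 112 and 104 CPM in persister cells and 256 CPM in parental cells. All persister libraries lay below the parental library and below every withdrawn library. It was 2.10-fold lower in persister than in parental cells (log2 fold change -1.07 ± 0.21 (SE), adjusted p = 0.00273) and 2.29-fold higher in withdrawn than in persister cells (log2 fold change 1.20 ± 0.13 (SE), adjusted p = 1.74e-05).

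**Figure D2:**
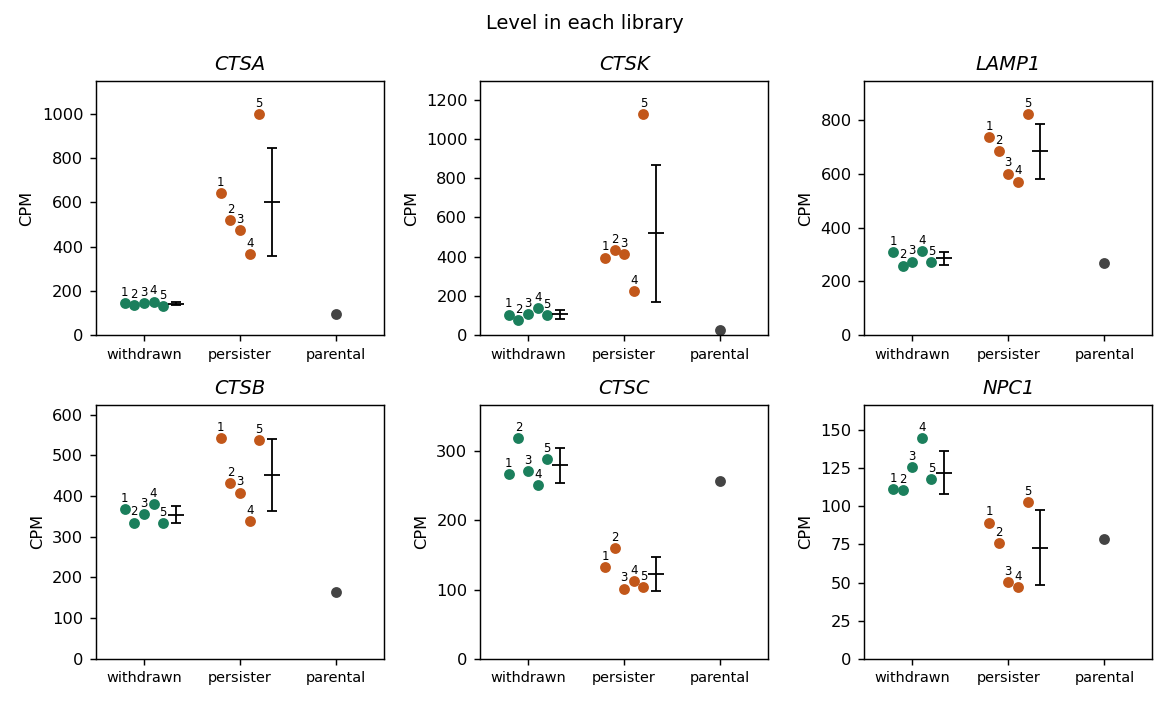
CPM per library (linear y axis from 0) for CTSA, CTSK, LAMP1, CTSB, CTSC and NPC1, with withdrawn, persister and parental cells from left to right, 1 point per library numbered by culture, and a dash with error bars for the mean and SD of each group of 5. CTSA, CTSK and LAMP1 are higher in persister than in withdrawn libraries, and the means of CTSC and NPC1 are higher in withdrawn than in persister libraries.

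CTSB and CTSL, the abundant endopeptidases of most cell types, rose in persister cells, and their falls after withdrawal were small and depended on the fit. CTSB had 368, 335, 355, 379.7 and 334 CPM in withdrawn cells, 543, 432, 409, 339 and 537 CPM in persister cells and 164 CPM in parental cells. It was 2.75-fold higher in persister than in parental cells (adjusted p = 0.00119), and every withdrawn library also lay above the parental one. The fall of 1.28-fold in withdrawn against persister cells passed the threshold (log2 fold change -0.35 ± 0.13 (SE), adjusted p = 0.0344) but did not with culture number as a block (adjusted p = 0.0586). CTSL had 246, 220.0, 231, 261 and 212 CPM in withdrawn cells, 343, 387, 288, 189 and 360.2 CPM in persister cells and 123 CPM in parental cells. It was 2.54-fold higher in persister than in parental cells (adjusted p = 0.00812). Its 1.34-fold fall in withdrawn against persister cells (log2 fold change -0.42 ± 0.16 (SE), adjusted p = 0.0488) was likewise lost with the block (adjusted p = 0.103) and in 13 of 20 alternatives in all, against 7 of 20 for CTSB. LGMN, the asparaginyl peptidase that processes cathepsins, had 37.9, 35.8, 35.9, 39.4 and 35.0 CPM in withdrawn cells, 32.6, 31.7, 41.2, 33.5 and 42.0 CPM in persister cells and 20.3 CPM in parental cells. It was 1.78-fold higher in persister than in parental cells (adjusted p = 0.00529) and was not called in withdrawn against persister cells (log2 fold change 0.024 ± 0.10 (SE), adjusted p = 0.852), where the 2 groups overlapped. CTSF, another cysteine endopeptidase, had 68.6, 64.7, 62.9, 72.1 and 72.6 CPM in withdrawn cells, 66.3, 48.5, 65.4, 65.5 and 123 CPM in persister cells and 34.6 CPM in parental cells. Its call in persister against parental cells was marginal (log2 fold change 1.09 ± 0.38 (SE), adjusted p = 0.0492) and was lost in 13 of 19 alternatives, with adjusted p from 0.00440 to 0.17. CTSF was not called in withdrawn against persister cells (adjusted p = 0.663). CTSZ, a carboxypeptidase, had 386, 440.0, 340.4, 361 and 354 CPM in withdrawn cells, 402, 297, 374, 281 and 479 CPM in persister cells and 417 CPM in parental cells, with no call in either comparison (adjusted p = 0.590 for persister minus parental, adjusted p = 0.843 for withdrawn minus persister).

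The aspartic and serine peptidases CTSD, CTSA and TPP1 all rose in persister cells, 3 of 3, and all fell after withdrawal. CTSD (ENSG00000117984, chr11:1752752-1764573, minus strand), the main aspartic peptidase of the lysosome, had 74.9, 73.3, 66.1, 68.6 and 65.9 CPM in withdrawn cells, 184, 129.7, 142, 100.1 and 235 CPM in persister cells and 42.9 CPM in parental cells. It was 3.69-fold higher in persister than in parental cells (log2 fold change 1.88 ± 0.38 (SE), adjusted p = 0.00358) and 2.27-fold lower in withdrawn than in persister cells (log2 fold change -1.18 ± 0.19 (SE), adjusted p = 0.000331). Of its annotated exon bases, 41.7% are shared on the same strand with a second annotated gene, so reads assigned to CTSD are a part of those from the locus. CTSA (ENSG00000064601, chr20:45890144-45898820, plus strand), the serine carboxypeptidase that protects GLB1 and NEU1 in a shared complex, had 146, 136, 145, 151 and 133 CPM in withdrawn cells, 644, 519, 474, 366 and 999 CPM in persister cells and 97.5 CPM in parental cells. No persister library of CTSA came down to the level of a withdrawn library, and every withdrawn library lay above the parental one. CTSA was 6.16-fold higher in persister than in parental cells (log2 fold change 2.62 ± 0.47 (SE), adjusted p = 0.00183) and 4.22-fold lower in withdrawn than in persister cells (log2 fold change -2.08 ± 0.23 (SE), adjusted p = 2.08e-05). TPP1, a tripeptidyl aminopeptidase, had 119.9, 136, 116, 131 and 117 CPM in withdrawn cells, 233, 216, 188, 188 and 403 CPM in persister cells and 66.3 CPM in parental cells. It was 3.71-fold higher in persister than in parental cells (adjusted p = 0.00383) and 1.98-fold lower in withdrawn than in persister cells (adjusted p = 0.00123), and culture 5 set its upper end.

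Of the 10 glycosidases, 9 rose in persister cells, all but GUSB, and 8 fell after withdrawal. The largest rises were those of FUCA1 and NEU1. FUCA1, which removes fucose from glycoproteins, had 22.3, 28.2, 23.8, 19.5 and 23.1 CPM in withdrawn cells, 70.1, 31.4, 54.2, 47.5 and 113 CPM in persister cells and 19.1 CPM in parental cells. The rise in persister over parental cells was 3.32-fold (adjusted p = 0.0363), and the fall in withdrawn against persister cells was 2.71-fold (adjusted p = 0.00155). FUCA1 kept its rise in all but 3 of 19 alternatives. NEU1, the sialidase of the complex with CTSA, had 33, 29.9, 30.7, 29.9 and 29.8 CPM in withdrawn cells, 105, 56.2, 63.5, 53.7 and 108 CPM in persister cells and 23.4 CPM in parental cells. The rise in persister over parental cells was 3.30-fold (adjusted p = 0.00652), and the fall in withdrawn against persister cells was 2.51-fold (adjusted p = 0.000187). In both genes the persister libraries lay above the withdrawn libraries. HEXA, the alpha subunit of the hexosaminidase that degrades GM2 ganglioside, had 33.3, 31.7, 33.6, 33.5 and 31.2 CPM in withdrawn cells, 72.8, 58.1, 62.2, 55.1 and 93.5 CPM in persister cells and 24.2 CPM in parental cells. HEXA was 2.82-fold higher in persister than in parental cells (adjusted p = 0.00134) and 2.09-fold lower in withdrawn than in persister cells (adjusted p = 4.52e-05). MAN2B1, the acid alpha-mannosidase, had 78.3, 77.6, 83.7, 82.9 and 85.5 CPM in withdrawn cells, 119, 98.9, 118, 115 and 176 CPM in persister cells and 49.5 CPM in parental cells. MAN2B1 was 2.53-fold higher in persister than in parental cells (adjusted p = 0.00257) and 1.54-fold lower in withdrawn than in persister cells (adjusted p = 0.00222). GAA, which degrades glycogen, had 78.6, 71.6, 78.0, 78.5 and 79.9 CPM in withdrawn cells, 107, 82.3, 102, 93.4 and 161 CPM in persister cells and 47.1 CPM in parental cells. GAA was 2.32-fold higher in persister than in parental cells (adjusted p = 0.00872) and 1.41-fold lower in withdrawn than in persister cells (adjusted p = 0.0167). For these 3 enzymes every withdrawn library lay between the persister libraries and the parental library.

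IDUA, which cleaves iduronic acid from dermatan and heparan sulfate, had 4.57, 5.97, 5.25, 5.13 and 6.03 CPM in withdrawn cells, 10.6, 12.8, 13.6, 8.56 and 20.2 CPM in persister cells and 5.75 CPM in parental cells. The rise in persister over parental cells was 2.28-fold (adjusted p = 0.0356), and the fall in withdrawn against persister cells was 2.44-fold (adjusted p = 0.000294), and 4 of 19 alternatives lost the rise. GLA, the alpha-galactosidase lacking in Fabry disease, had 27.2, 27.4, 24.4, 24.3 and 22.6 CPM in withdrawn cells, 60.9, 34.9, 40.4, 41.1 and 51.0 CPM in persister cells and 24.3 CPM in parental cells. The rise in persister over parental cells was 1.88-fold (adjusted p = 0.0205), and the fall in withdrawn against persister cells was 1.81-fold (adjusted p = 0.000334). GLB1, the beta-galactosidase whose activity is stained as a marker of senescent cells, had 66.2, 67.5, 66.7, 63.7 and 63.7 CPM in withdrawn cells, 89.7, 79.8, 69.4, 73.8 and 108 CPM in persister cells and 52.5 CPM in parental cells. The rise in persister over parental cells was 1.6-fold (adjusted p = 0.0253), and the fall in withdrawn against persister cells was 1.28-fold (adjusted p = 0.0177). This was the smallest rise among the 30 genes called higher in persister cells. NAGLU, which acts on heparan sulfate, had 32.9, 26.6, 28.6, 34.8 and 29.1 CPM in withdrawn cells, 42.9, 51.1, 31.5, 27.0 and 46.1 CPM in persister cells and 17.7 CPM in parental cells. It was 2.24-fold higher in persister than in parental cells (adjusted p = 0.0154) and was not called in withdrawn against persister cells (adjusted p = 0.0674). GUSB, the beta-glucuronidase, had 81.1, 77.2, 80.9, 76.3 and 79.5 CPM in withdrawn cells, 72.9, 57.1, 51.0, 37.8 and 49.9 CPM in persister cells and 50.1 CPM in parental cells. The persister libraries of GUSB lay around the parental value (adjusted p = 0.777), while it was 1.47-fold higher in withdrawn than in persister cells (log2 fold change 0.56 ± 0.14 (SE), adjusted p = 0.00579). IDUA shares exon bases with an overlapping gene, and FUCA1 and GUSB have pseudogene copies, so reads of these 3 may be assigned in part elsewhere.

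Among the sulfatases, 2 of 5 were called higher in persister than in parental cells, and 4 of 5 were called lower in withdrawn than in persister cells. ARSA, which desulfates sulfatide, had 7.53, 7.5, 7.30, 6.84 and 6.88 CPM in withdrawn cells, 20.045, 16.7, 20.5, 16.9 and 34.2 CPM in persister cells and 4.74 CPM in parental cells. It was 4.57-fold higher in persister than in parental cells (adjusted p = 0.00133) and 3.01-fold lower in withdrawn than in persister cells (adjusted p = 2.87e-05). GALNS, which acts on keratan sulfate, had 16.7, 16.5, 15.4, 14.3 and 15.2 CPM in withdrawn cells, 59.3, 31.5, 36.8, 38.4 and 63.2 CPM in persister cells and 17.5 CPM in parental cells. It was 2.62-fold higher in persister than in parental cells (adjusted p = 0.0110) and 2.93-fold lower in withdrawn than in persister cells (adjusted p = 3.23e-05), and each withdrawn library lay below the parental library. SGSH, a heparan sulfatase, had 20.8, 18.5, 19.1, 20.7 and 22.1 CPM in withdrawn cells, 32.6, 37.8, 33.2, 21.0 and 49.997 CPM in persister cells and 19.1 CPM in parental cells. IDS, which removes sulfate from iduronic acid, had 62.4, 60.9, 64.1, 70.6 and 65.2 CPM in withdrawn cells, 126, 60.2, 128, 129.9 and 169.8 CPM in persister cells and 69.2 CPM in parental cells. SGSH and IDS were not called in persister against parental cells (log2 fold change 0.87 ± 0.33 (SE), adjusted p = 0.0680 for SGSH, and log2 fold change 0.83 ± 0.38 (SE), adjusted p = 0.121 for IDS). They were 1.73-fold and 1.90-fold lower in withdrawn than in persister cells (adjusted p = 0.00342 for SGSH, adjusted p = 0.00316 for IDS). ARSB, which acts on dermatan and chondroitin sulfate, had 37.6, 37.4, 37.1, 42.6 and 35.0 CPM in withdrawn cells, 37.4, 44.8, 40.7, 49.4 and 56.9 CPM in persister cells and 38.2 CPM in parental cells, and passed in neither comparison (adjusted p = 0.334 for persister minus parental, adjusted p = 0.0597 for withdrawn minus persister).

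Of the 5 lipid hydrolases, activators and carriers, ASAH1, PSAP, GM2A and NPC2 rose in persister cells and fell after withdrawal, and LIPA passed in neither comparison. ASAH1, the acid ceramidase, had 44.4, 47.1, 44.7, 46.9 and 43.7 CPM in withdrawn cells, 152, 133, 118, 117 and 276 CPM in persister cells and 34.3 CPM in parental cells. ASAH1 was 4.64-fold higher in persister than in parental cells (adjusted p = 0.00338) and 3.51-fold lower in withdrawn than in persister cells (adjusted p = 4.34e-05). PSAP (ENSG00000197746, chr10:71816298-71851375, minus strand), the precursor of the saposins that present sphingolipids to hydrolases, had 996, 952, 984, 1086 and 972 CPM in withdrawn cells, 1600.5, 1586, 1359, 1433 and 2191 CPM in persister cells and 583 CPM in parental cells. PSAP was 2.81-fold higher in persister than in parental cells (adjusted p = 0.00101) and 1.64-fold lower in withdrawn than in persister cells (adjusted p = 0.000560), with log2 fold changes of 1.49 ± 0.24 and -0.71 ± 0.13 (SE). Every withdrawn library of PSAP stayed above the parental library. GM2A, which lifts GM2 ganglioside out of the membrane for HEXA, had 54.0, 50.2, 48.3, 57.3 and 48.2 CPM in withdrawn cells, 91.9, 83.7, 69.5, 59.6 and 114 CPM in persister cells and 33.3 CPM in parental cells. GM2A was 2.52-fold higher in persister than in parental cells (adjusted p = 0.00544) and 1.62-fold lower in withdrawn than in persister cells (adjusted p = 0.00236). NPC2, the soluble cholesterol carrier that hands its cargo to NPC1, had 56.7, 61.5, 65.8, 52.6 and 57.6 CPM in withdrawn cells, 132, 97.7, 105, 74.8 and 145 CPM in persister cells and 39.6 CPM in parental cells. NPC2 was 2.80-fold higher in persister than in parental cells (adjusted p = 0.00371) and 1.88-fold lower in withdrawn than in persister cells (adjusted p = 0.000473), opposite in direction to NPC1 after withdrawal. LIPA, the acid lipase of cholesteryl esters and triglycerides, had 112, 96.0, 97.3, 124 and 96.3 CPM in withdrawn cells, 119, 150.3, 100.016, 112 and 116 CPM in persister cells and 84.1 CPM in parental cells (adjusted p = 0.0874 for persister minus parental, adjusted p = 0.207 for withdrawn minus persister).

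Most of the lysosomal genes were lower in withdrawn than in persister cells. Between withdrawn and persister cells, 29 of 40 genes fell and 3 rose (CTSC, NPC1 and GUSB), against 28% of all tested genes called lower and 24.5% called higher. The median log2 fold change of the 40 genes was -0.82, beside -0.033 over all genes tested. In 25 genes every withdrawn library lay below every persister library, and in 3 every one lay above, against 20.3% of all genes in each direction. Culture by culture, 27 genes were lower in the withdrawn than in the persister library of the same number in 5 of 5 cultures, 3 were higher in 5 of 5, and 10 were mixed. The share of all genes with such agreement was not computed. The largest falls were those of CTSK, CTSA, ASAH1, CTSH and CTSO, and the smallest adjusted p was that of LAMP1. With culture number as a block, 27 genes fell and 3 rose, against 27.6% and 26.5% of all genes in that fit, the 2 lost calls being CTSB and CTSL. Of the 30 genes that rose in persister cells, 27 fell after withdrawal, and CTSC, which had fallen, rose. These 2 comparisons share the persister libraries, so their directions are not independent of each other.

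Against parental cells, withdrawn cells showed no called lysosomal gene in the fit of all 11 libraries, while their levels lay mostly above the parental library. By edgeR, 0 of 40 genes were called higher or lower, against 0.312% of all genes called higher and 0.118% lower, with a smallest adjusted p of 0.0686 for LGMN. At an unadjusted p under 0.05, 15 of 40 were higher and 0 lower, against 9.17% and 6.07% of all genes. DESeq2 called 6 higher, against 3.27% of all genes, and limma-voom called 0 (background 0.241%). The median log2 fold change was 0.53, beside 0.0456 over all genes. In 28 genes every withdrawn library lay above the parental library and in 1 (GALNS) below, against 33% and 30.8% of all genes. This 0 depended on which libraries set the spread. A fit of withdrawn and parental libraries alone, whose spread came only from withdrawn libraries, called 25 higher and 0 lower, against 16.1% and 14.4% of all genes. Without persister culture 5 the fit called 10 higher and 0 lower, against 1.6% and 0.789% of all genes. Without persister culture 4 it called 3 higher, against 0.552% of all genes. It called 1 higher without persister culture 1, against 0.523%, and 1 without persister culture 2, against 1.07%. Without persister cultures 1 and 5, the 2 with the lowest proliferation sums and left out after the data were seen, it called 16 higher, against 5.38% of all genes.

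The genes differed in how much of their rise was left after withdrawal. Among the 30 genes called higher in persister cells, the log2 difference between withdrawn and parental cells was a median of 39.2% of that between persister and parental cells, with a range of -11.6% (GALNS) to 103% (LGMN). The share was below 25% in 11 genes, from 25% to under 50% in 9 and 50% or more in 10. It was 6.05% for LAMP1, 16.0% for CD63 and 20.8% for CTSA. In contrast, it was 52.2% for PSAP, 56.2% for LAMP2, 61.3% for CTSS, 68.6% for CTSL and 75.9% for CTSB. These shares are descriptions that rest on the 1 parental library, and no test was made of the differences between genes. By calls, 28 genes had a change in persister cells that was reversed in withdrawn cells with no call left against parental cells, and 3 (CTSF, LGMN and NAGLU) were called only in persister against parental cells. A further 4 (NPC1, GUSB, IDS and SGSH) were called only in withdrawn against persister cells, and 5 (SCARB2, CLN3, CTSZ, ARSB and LIPA) in no comparison. With fits of each pair of groups alone, 2 genes were in the first of these classes and 14 were called in all 3 comparisons as partly reversed. Without persister cultures 1 and 5, the corresponding numbers were 14 and 12. The share of all genes in each class was not computed. In the fit of all 11 libraries, only 0.312% of all tested genes were called higher and 0.118% lower in withdrawn against parental cells. A missing call in that comparison was thus common to most genes.

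**Figure D3:**
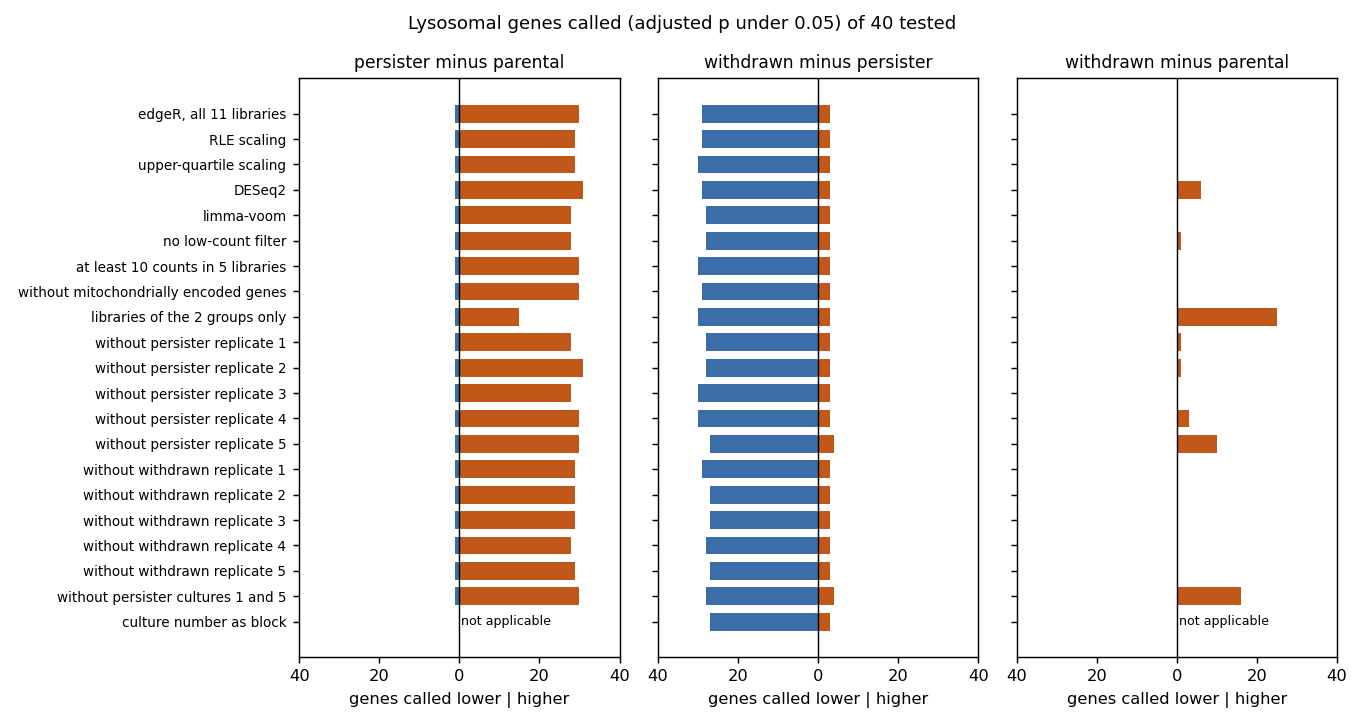
Number of the 40 genes called higher (right of 0) and lower (left of 0) in each comparison at an adjusted p under 0.05, under the fit as reported and each alternative. Counts for the comparisons with persister cells change little except for the 2-group fit of persister and parental cells, where 15 genes are called higher, while those for withdrawn against parental cells range from 0 to 25.

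Persister cultures varied more than withdrawn ones. The coefficient of variation of CPM had a median over the 40 genes of 7.27% between withdrawn libraries and 28.9% between persister libraries, and it was larger in persister libraries for 39 of 40 genes. The whole count table also differed more between persister libraries. Its chi-square per gene between 2 libraries, larger when they differ more, was 85.1 to 371 within persister and 8.94 to 26.8 within withdrawn cells. Persister culture 5, whose proliferation sum was the lowest and whose mitochondrial share was the highest, held the highest persister value in 32 of 40 genes. Persister culture 4 held the lowest in 22 of 40. Persister culture 1, with the second lowest proliferation sum, was highest in 3 of 40, and culture 2, with the highest, was highest in 5 of 40 and lowest in 11 of 40. No such counts by culture were made over all genes, and the part of proliferation and mitochondrial share in these differences was not tested. Without persister cultures 1 and 5, 30 genes were still called higher and 1 was called lower when persister were set against parental cells, beside 20.1% and 18.8% of all genes. In the same libraries 28 were called lower and 4 higher in withdrawn than in persister cells, against 28.7% and 26.1% of all genes.

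**Figure D4:**
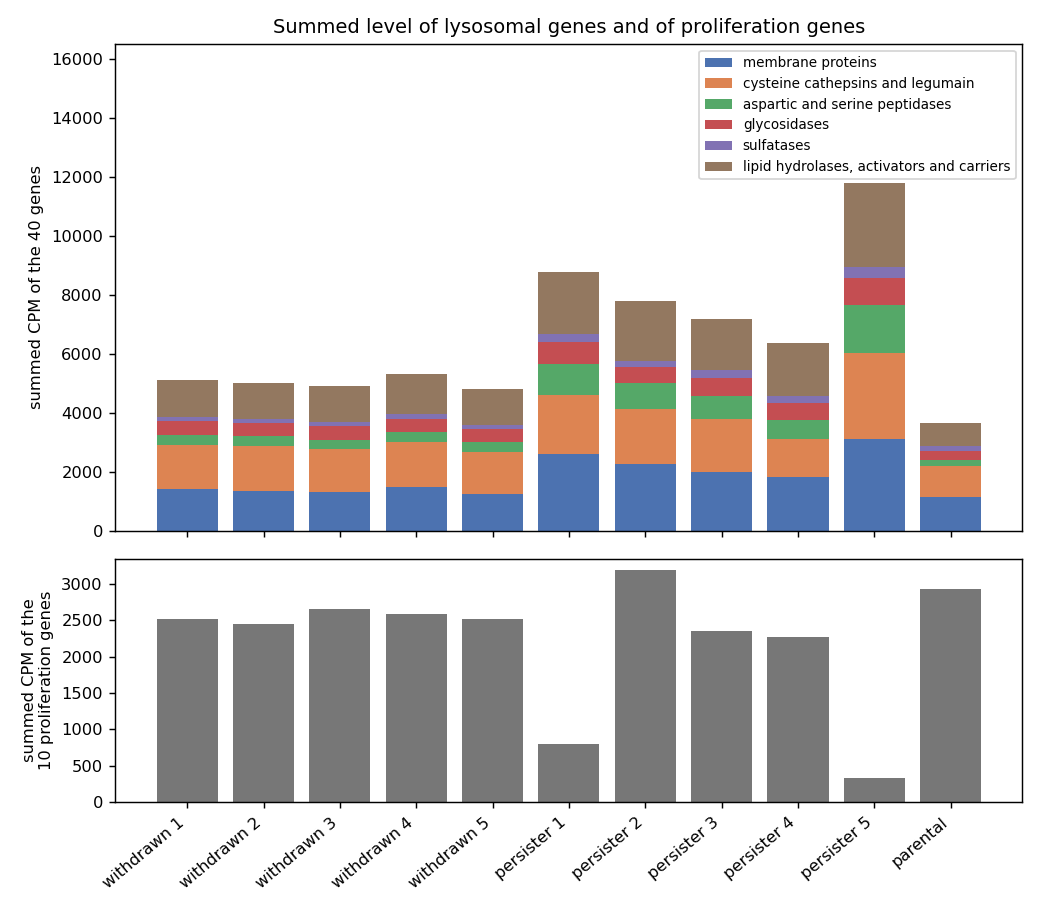
Summed CPM per library (y axis) of the 40 lysosomal genes, stacked by role (upper panel), and of the 10 proliferation genes (lower panel), with withdrawn, persister and parental libraries from left to right. Persister culture 5 has the highest lysosomal sum, 11799 CPM, and the lowest proliferation sum, 327 CPM.

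Per length, on a length-scaled transcript level (TPM) computed from the counts and annotated exon lengths, PSAP, CTSZ and CD63 were the most abundant of the 40 in the parental library. The mean level of PSAP was 900.5 in withdrawn, 1294 in persister and 574 in parental cells, and it ranked 1st of the 40 in withdrawn and persister cells. CTSZ, at 654 in withdrawn, 556 in persister and 791 in parental cells, ranked 1st in the parental library and 6th in persister cells. CD63 averaged 545 in withdrawn, 1006 in persister and 516 in parental cells. CTSK, at 162 in withdrawn, 698 in persister and 45.5 in parental cells, ranked 7th in withdrawn cells, 3rd in persister cells and 17th in parental cells. CTSA averaged 158 in withdrawn, 582 in persister and 118 in parental cells. The length of a gene was the merged exon length of its transcripts in the basic set of GENCODE 29, with every one of those exons taken as used, so levels of different genes are approximate. Of the 40 genes, 18 share exon bases with another annotated gene, 14 of them with one on the opposite strand, and 9 share over 10% of their exon bases, CTSA, CTSD, CLN3, IDS and IDUA among them. CTSL, LGMN and IDS also have pseudogene copies.

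Of 28 further lysosomal genes, 18 rose and 1 fell (LAPTM4B) in persister against parental cells, and 9 were not called. Of all tested genes, 16.1% were called higher and 15.1% lower in that comparison. The median log2 fold change of the 28 was 0.83. In withdrawn against persister cells 19 fell and 3 rose, against 28% of all genes called lower and 24.5% called higher, with a median of -0.71, and in withdrawn against parental cells edgeR called 0 of 28. TMEM175, a lysosomal potassium and proton channel, averaged 12.6 ± 0.452 CPM in withdrawn cells, 23.4 ± 2.28 CPM in persister cells (SD, n = 5 each) and 8.95 CPM in the parental library. DPP7, a dipeptidyl peptidase, averaged 53.2 ± 1.58 CPM in withdrawn cells, 111 ± 24.6 CPM in persister cells (SD, n = 5 each) and 30.4 CPM in the parental library. SMPD1, the acid sphingomyelinase, averaged 27.8 ± 2.49 CPM in withdrawn cells, 102 ± 32.1 CPM in persister cells (SD, n = 5 each) and 17.1 CPM in the parental library. Their folds in persister over parental cells were 2.62 (adjusted p = 0.000190), 3.66 (adjusted p = 0.000417) and 5.98 (adjusted p = 0.000521), in that order.

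Of 11 genes for the delivery and activation of hydrolases, 5 rose in persister over parental cells (SUMF1, GNPTG, NAGPA, SORT1 and LRP1) and 0 fell, where 16.1% of all genes were called higher and 15.1% lower. In withdrawn against persister cells 8 of the 11 fell and 0 rose, where 28% of all genes were called lower and 24.5% higher. SUMF1, which installs the formylglycine that sulfatases need, averaged 22.8 ± 1.94 CPM in withdrawn cells, 66.8 ± 11.5 CPM in persister cells (SD, n = 5 each) and 16.4 CPM in the parental library, and was 4.06-fold higher in persister than in parental cells (log2 fold change 2.02 ± 0.24 (SE), adjusted p = 0.000133). GNPTG, a subunit of the enzyme that starts the mannose phosphate tag, averaged 15.8 ± 0.590 CPM in withdrawn cells, 42.1 ± 11.9 CPM in persister cells (SD, n = 5 each) and 10.7 CPM in the parental library and was 3.92-fold higher in persister than in parental cells (adjusted p = 0.000933). The catalytic partner GNPTAB and the tag receptors were singled out after their values were seen. GNPTAB had a log2 fold change of 0.30 between persister and parental cells (adjusted p = 0.406), and the receptors M6PR and IGF2R had values of 0.13 (adjusted p = 0.464) and 0.015 (adjusted p = 0.953). Neither receptor was called in persister cells, and both fell in withdrawn against persister cells (adjusted p = 7.94e-05 for M6PR, adjusted p = 0.00318 for IGF2R).

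Among 18 regulators of lysosomal gene expression, 7 rose in persister over parental cells and 0 fell, beside 16.1% of all genes called higher and 15.1% lower. In withdrawn against persister cells 9 of the 18 fell and 1 rose, beside 28% of all genes called lower and 24.5% higher. The family of TFEB, TFE3, MITF and TFEC, together with FLCN, is described for its role, after its values were seen. TFE3 averaged 69.5 ± 4.40 CPM in withdrawn cells, 128 ± 26.3 CPM in persister cells (SD, n = 5 each) and 58.0 CPM in the parental library, and was 2.20-fold higher in persister than in parental cells (adjusted p = 0.00721) and 1.84-fold lower in withdrawn than in persister cells (adjusted p = 0.000274). TFEB averaged 2.08 ± 0.255 CPM in withdrawn cells, 2.17 ± 1.21 CPM in persister cells (SD, n = 5 each) and 1.55 CPM in the parental library and was not called in either comparison (adjusted p = 0.551 for persister minus parental, adjusted p = 0.881 for withdrawn minus persister). MITF averaged 138 ± 24.2 CPM in withdrawn cells, 102 ± 12.9 CPM in persister cells (SD, n = 5 each) and 78.4 CPM in the parental library, was not called in persister against parental cells (adjusted p = 0.219) and was the 1 regulator that rose in withdrawn over persister cells (1.35-fold, adjusted p = 0.0134). TFEC, a family member known from macrophages, averaged 0.134 ± 0.0636 CPM in withdrawn cells, 4.17 ± 2.67 CPM in persister cells (SD, n = 5 each) and 0.0765 CPM in the parental library, with adjusted p = 0.00439 for persister against parental cells at this low level. FLCN, part of the complex that acts on RagC and RagD to control TFE3 and TFEB, was 1.90-fold higher in persister than in parental cells (adjusted p = 0.00759), and LAMTOR1, which anchors the Ragulator complex to the lysosome, was 1.81-fold higher (adjusted p = 0.00179). RRAGA, a Rag GTPase on the same membrane, was 1.68-fold higher (adjusted p = 0.00549). These are transcript levels, and the activity of TFEB and TFE3, which is set largely by their place in the cell, was not measured. Of 8 inhibitors of cysteine cathepsins, 5 had enough counts to test. In persister over parental cells 2 of the 5 rose and 0 fell, beside 16.1% of all genes called higher and 15.1% lower. In withdrawn against persister cells 2 fell and 1 rose, beside 28% of all genes called lower and 24.5% higher. CST3 and CSTB rose in persister over parental cells (2.63-fold, adjusted p = 0.00228, and 2.83-fold, adjusted p = 0.00128) and both fell in withdrawn against persister cells (1.94-fold, adjusted p = 0.000124, and 3.19-fold, adjusted p = 1.78e-06).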

How the data were processed

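The deposited table holds whole-number read counts per gene for 11 libraries of A375 cells, 5 withdrawn, 5 persister and 1 parental. Per the labels' protocols, column-purified RNA went into a stranded mRNA kit. The authors used bcl2fastq, HISAT2 and HTSeq with hg38, per the submitters' processing notes; their versions, the annotation release and the strand setting were not given in the sources used here, so reads of overlapping genes on opposite strands may not be told apart. Columns were matched to samples by title. Of 58721 identifiers, 58676 matched GENCODE 29, which gave symbols, coordinates and exon lengths. Tests used R 4.3.3 and edgeR 4.0.16, with low counts removed by filterByExpr (minimum count 10, minimum total 15), TMM scaling and a robust quasi-likelihood fit of all 11 libraries in 3 groups, with Benjamini-Hochberg adjustment over 23693 genes and a threshold of 0.05. The SE of a log2 fold change was its size divided by the square root of the F statistic. The alternatives were RLE and upper-quartile scaling, DESeq2 1.42.0, limma-voom (limma 3.58.1), no low-count filter, a filter of at least 10 counts in 5 libraries, leaving out mitochondrially encoded genes, fits of 2 groups, leaving out each library, and culture number as a block. The block was taken from the sample titles, which name each withdrawn library after a persister culture. Each gene's log2 CPM minus its group mean correlated between libraries of 1 number at 0.0484 to 0.0909 across genes, highest with the own number in 5 of 5 cultures. No 2 libraries of a group agreed within counting noise (lowest chi-square per gene 8.94). The pipeline was run on simulated counts in which each gene had the same spread in all groups. The larger spread among persister libraries was thus not simulated. Every gene of the list is named, per a rule that all members are accounted for by role; the genes and lists were chosen with earlier results of these data known.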

Additional observations from a re-analysis of the deposited data

Results flagged for a closer look

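In 10 of 80 groups of 5 libraries (40 genes in withdrawn and in persister cells, 12.5%), the highest or lowest library lay farther from its neighbour than Dixon's 95% limit for 5 values; chance flags about 1 in 20 groups, and genes of 1 library are not independent. In 7 of the 10, persister culture 5 stood high: CTSK at 1127 CPM with the next persister library at 435, CTSF at 123 with the next at 66.3, TPP1 at 403 with the next at 233, and MAN2B1 at 176 with the next at 119. Likewise ARSA stood at 34.2 CPM with the next library at 20.5, ASAH1 at 276 with the next at 152, and PSAP at 2191 with the next at 1600.5. Without culture 5, the log2 fold change of persister minus parental cells was 3.76 for CTSK, 1.64 for TPP1, 1.19 for MAN2B1, 1.97 for ARSA, 1.92 for ASAH1 and 1.36 for PSAP, and 0.83 for CTSF, and all 7 stayed called in edgeR's quasi-likelihood fit. Withdrawn culture 2 was high in SCARB2 at 240.2 CPM, with the next library at 214, and low in GAA at 71.6 CPM, with the next at 78.0. Withdrawn culture 1 was high in NEU1 at 33 CPM, with the next library at 30.7.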

How the results depend on the processing

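Every gene was compared with its reported value under 19 alternatives for persister against parental and withdrawn against parental cells and 20 for withdrawn against persister cells, the exclusion of persister cultures 1 and 5 being added after the data were seen. Of 760 persister against parental values, 721 kept their direction and side of the threshold, and the corresponding numbers were 758 of 800 for withdrawn against persister and 691 of 760 for withdrawn against parental cells. Leaving out 1 library at a time gave 28 to 31 genes higher in persister than parental cells, 27 to 30 lower and 3 to 4 higher in withdrawn than persister cells (median log2 fold change -0.90 to -0.68), and 0 to 10 higher in withdrawn than parental cells. The fits of 2 groups called 15 genes higher in persister than parental cells and 25 higher in withdrawn than parental cells. DESeq2 called 6 higher in withdrawn than parental cells, against 3.27% of all genes. The fit with no low-count filter called 1 higher, against 0.197%. Without persister cultures 1 and 5, 16 genes were called higher in withdrawn than parental cells, and the median of withdrawn minus persister was -0.61. The same settings moved the count over all genes. Persister against parental cells had 3819 genes higher and 3572 lower, and 1354 and 1215 in the fit of those 2 groups. Withdrawn against parental cells had 74 higher and 28 lower, and 3483 and 3110 in the fit of those 2 groups. The corresponding numbers were 775 and 409 with DESeq2, 1241 and 845 without persister cultures 1 and 5, and 57 and 52 with limma-voom. The filter of 10 counts in 5 libraries gave 49 lower, with 0.531% of all genes called higher. With 1 library left out, 19 to 374 genes were higher and 4 to 184 lower. Changes of direction were found only in genes not called in that comparison. For persister minus parental, leaving out 1 library gave log2 fold changes of -0.033 to 0.20 for GUSB (-0.039 without cultures 1 and 5) and -0.26 to 0.017 for NPC1. For withdrawn minus persister the ranges were -0.048 to 0.15 for CTSZ, -0.0203 to 0.082 for LGMN and -0.23 to 0.15 for CTSF, with -0.0029 for CTSZ and -0.012 for LGMN under upper-quartile scaling and 0.19 for CTSF without cultures 1 and 5. For withdrawn minus parental they were -0.019 to 0.039 for SCARB2 (-0.00298 under upper-quartile scaling), -0.33 to 0.048 for CLN3 and -0.055 to 0.0097 for ARSB. The cause of these changes was not tested, and the effects of fewer samples and of the libraries that set the spread were not separated. With culture number as a replicate block, 27 genes were lower and 3 higher in withdrawn than persister cells, and the block changed no call other than those of CTSB and CTSL. The parental level rests on 1 library, no label gives a batch, and CLN3, at under 1 CPM in every library, rests on the fewest counts.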

Other observations

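CTSK and CTSS, the genes with the largest folds of the 40 in persister over parental cells, lie 30250 bases apart on chromosome 1. The neighbours of CTSK were looked up after those values were seen. Within 200000 bases of CTSK lie 11 protein-coding genes, CTSK and CTSS included. Of these, HORMAD1 and CTXND2 had too few counts to test. ENSA, GOLPH3L, ARNT, SETDB1, CERS2, ANXA9 and MINDY1 were not called in persister against parental cells. The window was not drawn around CTSS, so genes farther out on its side were not looked up. ARNT, the gene next to CTSK, had a log2 fold change of 0.16 (edgeR adjusted p = 0.620), GOLPH3L, the nearest tested gene on the CTSS side, 0.24 (adjusted p = 0.336), and MINDY1, at the far end, 0.99 (adjusted p = 0.0700). In withdrawn against persister cells, SETDB1 was the 1 of these 7 neighbours called, with a log2 fold change of 0.41 (adjusted p = 0.00341).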
